A study of Mus musculus with 8 samples.

Results

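Grb10 (growth factor receptor bound protein 10, ENSMUSG00000020176) is 1 of the 8125 genes that the ribosome profiling table of Dis3l2 knockout mouse embryonic stem cells lists, and its row was found by its symbol. It was selected on its own measurements, because its input and its ribosome-protected fragments (RPFs) were both higher in the knockout, so its differences between genotypes stand here as a description with no test. KO cells were Dis3l2 -/-, made with CRISPR/Cas9, and Control cells were Dis3l2 +/-, so that both lacked at least 1 working allele of Dis3l2, an exoribonuclease that degrades uridylated non-coding RNA. Both were TC1 cells kept undifferentiated in LIF and serum without feeders, and were treated with cycloheximide before lysis in polysome buffer and library preparation with the TruSeq Ribo Profile kit. Each genotype gave 2 input libraries of rRNA-depleted mRNA and 2 RPF libraries, 8 in all, from separate cultures. Whether a genotype was 1 clone is not given in the sources used here, so a difference between clones cannot be told apart from genotype.

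Grb10 protein is an adaptor of the Grb7 family that binds activated receptor tyrosine kinases, above all the insulin and IGF1 receptors, through its SH2 and BPS domains and dampens the signal that they pass on. It is also a substrate of mTORC1, whose phosphorylation stabilises it, and in mice loss of the maternal copy gives overgrowth of the fetus and placenta. The gene is imprinted: most mouse tissues transcribe the maternal allele, whereas neurons transcribe the paternal allele from other start sites.

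Grb10 lies on the minus strand of mouse chromosome 11, at chr11:11930508-12038683 of GRCm38 in GENCODE M21, which gives it 9 transcripts, 6 of them coding. The longest coding sequence has 1788 bases, in a transcript of 17 exons, and another of 16 exons has a coding sequence of 1623 bases that starts from an internal site. The 2 windows of 250 bases before the RefSeq starts (GRCm38.p6) are shown because the imprinted gene is transcribed from more than 1 promoter, 5′ to 3′ on the minus strand with each CpG in capitals. The first is chr11:12037421-12037670, before the start at 12037420, and the second is chr11:12027972-12028221, before the start at 12027971. Other coding transcripts in GENCODE have starts that are not shown, among them 12038683, 12026732 and 12026324. Which start serves which parental allele was not tested.
Grb10 upstream start: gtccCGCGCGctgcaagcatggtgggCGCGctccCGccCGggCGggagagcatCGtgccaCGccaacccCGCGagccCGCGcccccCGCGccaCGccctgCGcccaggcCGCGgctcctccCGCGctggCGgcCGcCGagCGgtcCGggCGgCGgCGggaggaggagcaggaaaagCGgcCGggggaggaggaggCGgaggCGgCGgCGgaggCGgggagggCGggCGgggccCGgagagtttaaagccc
Grb10 internal start: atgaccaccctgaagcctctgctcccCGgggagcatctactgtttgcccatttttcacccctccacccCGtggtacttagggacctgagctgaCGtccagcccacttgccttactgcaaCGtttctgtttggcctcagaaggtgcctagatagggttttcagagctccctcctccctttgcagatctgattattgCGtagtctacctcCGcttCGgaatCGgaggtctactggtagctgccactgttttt

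The upstream window held 40 CpGs, more than 98.7% of 32851 promoter windows of the same length, whose median was 6, and its GC content was 81.2%. The internal window held 8 CpGs, at percentile 57.0, with a GC content of 54%. The letters GGGCGG, searched on both strands, occurred 5 times in the upstream window and 0 times in the internal one, while 32.7% of all windows held at least 1 match and 8.47% held at least 3. The deposited values are 1 per gene, so reads from the different starts cannot be told apart in what follows.

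Each value is a read count of a gene divided by 1 factor per library, so a gene of typical abundance stood near the same value in every library, and 1 read was worth 0.0630 to 0.250 units in input and 1.94 to 15.6 units in RPF. Reads summed over the 8125 listed genes were 9043982 and 33609787 in KO input and 8585206 and 8382211 in Control input. Reads of genes not listed are left out, so these sums are not sequencing depths. By the same sum the RPF libraries were shallower, with 268255 and 140163 reads in KO and 558962 and 1126782 in Control. Intervals given below are exact 95% Poisson intervals on the reads, which cover counting error only. Every listed gene had at least 1 read in each library, so a gene without reads in any library is not listed. Dis3l2 itself was not analysed here, so genotype rests on the labels and column names. The deposited change of translation efficiency (TE), whose header states no direction, ran opposite in sign to KO over Control as the columns name them, and every signed value below follows the column names.

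Grb10 input was high in KO and low in Control. Its normalised value was 215.8 and 221.7 in the KO input libraries, from 921 and 3521 reads, against 42.5 and 37.5 in the Control input libraries, from 174 and 150 reads. Both KO values lay above both Control values, as they did in 22.9% of the 7946 genes tested in input, and the counting intervals of the 2 genotypes were far apart. Its share of the reads of all listed genes in a library was taken as an RPM, with that sum scaled to a common total. The RPM of Grb10 was 101.8 and 104.8 in KO (exact binomial intervals 95.4 to 108.6 and 101.3 to 108.3). In Control it was 20.3 and 17.9 (17.4 to 23.5 and 15.1 to 21.0). In the order of all 8125 genes it stood at percentiles 70.3 and 71.0 in KO input, against 20.0 and 17.8 in Control input, so Grb10 was among the more abundant genes of the KO input libraries and among the less abundant genes of the Control input libraries.

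The group means of Grb10 input were 219 ± 4.15 in KO and 39.98 ± 3.50 in Control (SD, n = 2 each), which is 5.47-fold, and the 4 ratios of a KO over a Control library ran from 5.08 to 5.91. On the scale of log2(value + 10) the difference of KO minus Control was 2.20 (SE 0.08). This was the highest of 7946 genes tested, and the genes next in that order were Stra8, a retinoic acid target of the germ line, at 0.87, Cubn, an endocytic receptor, at 0.74 and Eif2b3, a subunit of the eIF2B exchange factor, at 0.72. Stra8 had 186 and 195 in KO input, against 98.1 and 101.3 in Control input. The step between Grb10 and the next gene was therefore wider than the step from that gene to a difference of 0.

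Grb10 RPFs showed the same order of genotypes from far fewer reads. The normalised RPF value of Grb10 was 493 and 342 in KO, from 60 and 22 reads, with counting intervals of 376 to 635 and 214 to 518. In Control it was 39.4 and 81.4, from 10 and 42 reads, with intervals of 18.9 to 72.4 and 58.7 to 110. Both KO libraries were above both Control libraries, as in 21.6% of the 6260 genes tested in RPF, and the lowest end of the KO intervals stayed above the highest end of the Control intervals. The KO percentiles among all 8125 genes were 87.6 and 80.6, against 18.1 and 40.2 in Control.

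The replicates of each genotype were less alike in RPF than in input. KO RPF replicate 2 was 0.694 times KO RPF replicate 1, and Control RPF replicate 2 was 2.07 times Control RPF replicate 1, whereas the same ratios in input were 1.03 in KO and 0.883 in Control. RPF group means were 418 ± 107 in KO and 60.4 ± 29.7 in Control (SD, n = 2 each), 6.91-fold, and the library ratios ran from 4.20 to 12.5. The difference on the log2(value + 10) scale was 2.65 (SE 0.39), the highest of 6260 genes tested. The genes next to it, Ube2v1 at 1.95, Pdcd5 at 1.95 and Gsto1 at 1.94, lay close together and below Grb10. Of these Ube2v1, a ubiquitin-conjugating enzyme variant, rested on 3 and 10 reads in KO, against 1 and 9 in Control.

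**Figure D1:**
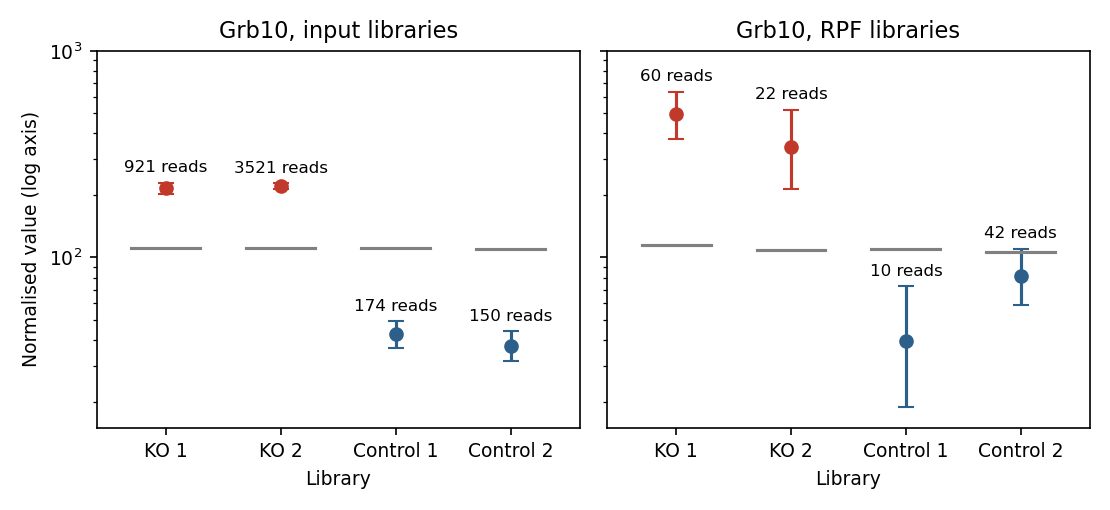
Normalised value of Grb10 (log axis) in each input library (left) and RPF library (right), KO in red and Control in blue, with exact 95% Poisson counting intervals and the reads behind each point; grey lines mark the median of all genes in that library. All 4 KO points lie above the grey line and all 4 Control points below it, with input values of 215.8 and 221.7 in KO against 42.5 and 37.5 in Control.

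The share of the table that passed the threshold gives the background for the counts below. Of 7946 genes tested with limma, 0.239% were called higher and 0.101% lower in KO at an adjusted p of 0.05, and in RPF 0.335% of 6260 were called higher and 0.288% lower. These 27 calls in input became 69 with a replicate block and 599 without Control input replicate 2, and the 39 calls in RPF became 1 with thinned reads, 90 with edgeR, 126 with the block and 873 without KO RPF replicate 1. An unadjusted p under 0.05 was reached by 12.7% of genes in input and 10.8% in RPF. The median difference of all genes was 0.00 in input and -0.02 in RPF.

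**Figure D2:**
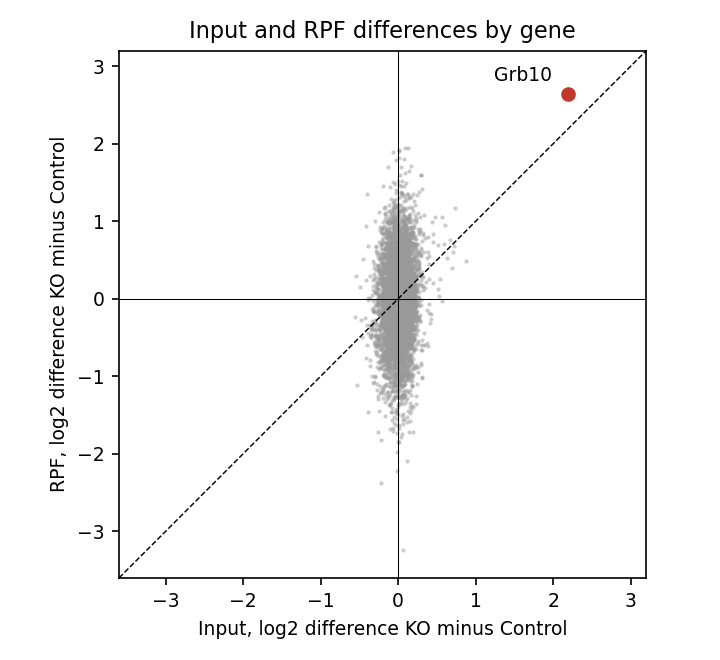
KO minus Control difference of each gene in input (x axis) and in RPF (y axis), both on the log2(value + 10) scale, for genes tested in both, with Grb10 in red and a dashed line of equal differences. Grb10 stands at 2.20 in input and 2.65 in RPF, apart from the grey cloud of the other genes.

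Grb10 was then set beside the 200 tested genes whose Control values were nearest to its own, since these had about as many Control reads. In input these genes had Control means of 38.0 to 42.3 and differences of -0.34 to 0.39, with quartiles of -0.08 and 0.08. The highest of them was Iqcg at 0.39, against 2.20 for Grb10. Limma called 0 of the 200, with 23 at an unadjusted p under 0.05, and in 42 of them (21%) both KO values exceeded both Control values. The 2 KO input replicates of Grb10 were 0.04 apart on the log2 scale, against a median of 0.09 in the 200. As these were matched in Control only and stood lower than Grb10 in KO, the KO gaps are not compared at like abundance. Its Control input replicates were 0.14 apart against a median of 0.10.

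In RPF the 200 genes of like Control abundance had Control means of 54.7 to 70.0 and differences from -0.80 to 1.35, with quartiles of -0.09 and 0.50. The filter, a mean of at least 50 over KO and Control, removed genes of this Control level that were low in KO. Without it, an alternative chosen after seeing the data, 43 of the 200 nearest genes were untested ones. The differences of these 200 ran from -1.65 to 1.35 with quartiles of -0.45 and 0.43, and 8 were over 1 and 10 under -1. Genes without reads in a KO library are not listed, so they stayed absent here too. The highest with the filter were Cep164 at 1.35, B4galt6 at 1.31 and Fbxl18 at 1.18, against 2.65 for Grb10. Limma called 0 of the 200 that passed the filter in RPF (9 at an unadjusted p under 0.05), and edgeR and DESeq2 on the reads also called 0 (14 and 2). The KO RPF replicates of Grb10 were 0.51 apart against a median of 0.71, again in genes that stood lower than Grb10 in KO. The Control RPF replicates were 0.89 apart against a median of 0.35, which was percentile 88.0 of the 200, and the Control input replicates were at percentile 62.5.

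**Figure D3:**
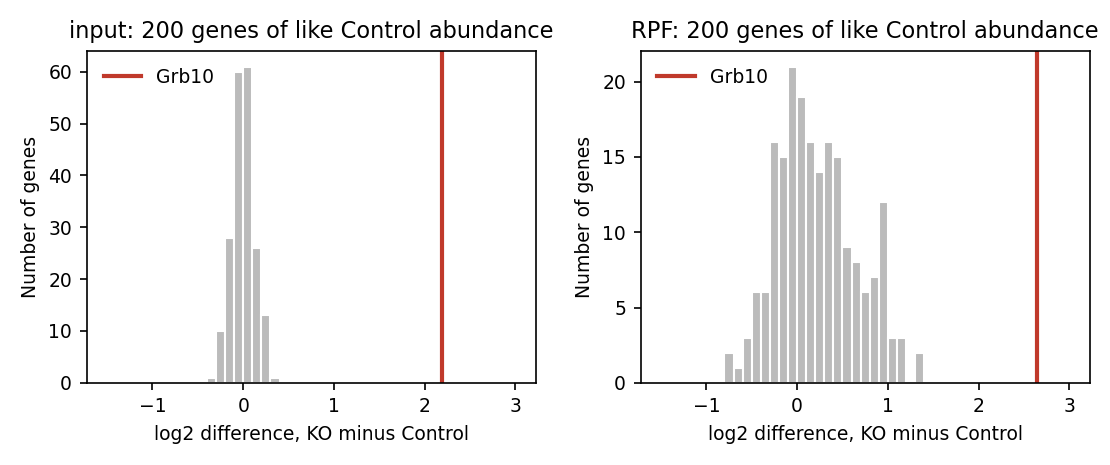
Number of genes by KO minus Control difference on the log2(value + 10) scale, for the 200 tested genes of Control abundance nearest to Grb10 in input (left) and in RPF (right), with Grb10 as a red line. The grey bars end at 0.39 in input and 1.35 in RPF, while Grb10 lies at 2.20 and 2.65.

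Whether ribosomes were denser on each Grb10 mRNA was read from TE, the RPF value over the input value of the library with the same number. Grb10 TE was 2.28 and 1.54 in KO, with intervals from the RPF reads alone of 1.74 to 2.94 and 0.967 to 2.34. In Control it was 0.928 and 2.17, with intervals of 0.445 to 1.71 and 1.57 to 2.94. The genotypes overlapped: the highest TE was in KO replicate 1, the next in Control replicate 2, and the lowest in Control replicate 1. Dividing by the other input library of the genotype left this order as it was, with 2.22 and 1.59 in KO and 1.05 and 1.92 in Control.

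Mean Grb10 TE was 1.91 ± 0.524 in KO and 1.55 ± 0.880 in Control (SD, n = 2 each). The ratio of means was 1.24, within library ratios of 0.711 to 2.46, and the difference on the log2 scale was 0.45 (SE 0.45), at rank 1046 of 6240 genes. If the column names were exchanged it would be -0.45, at rank 5195, and the Grb10 differences in input and RPF would be -2.20 and -2.65, the lowest of those tested. It rested on the Control RPF libraries, as it was 0.01 without Control RPF replicate 1 and 0.90 without Control RPF replicate 2. Limma called 0 of the 6240 genes in TE, 0.0% higher and 0.0% lower in KO, with 814 at an unadjusted p under 0.05, and no other tool was run on TE.

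Among genes of like input Grb10 TE was above the median in 3 of 4 library pairs. In KO replicates 1 and 2, 14 and 37 of the 200 genes nearest to it in KO input had a higher TE than Grb10, and the medians of the 200 were 0.914 and 0.890. In Control replicates 1 and 2, 124 and 28 of the 200 nearest in Control input had a higher TE, and the medians were 1.11 and 1.13. Control replicate 1, with 10 RPF reads, was the pair below the median.

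**Figure D4:**
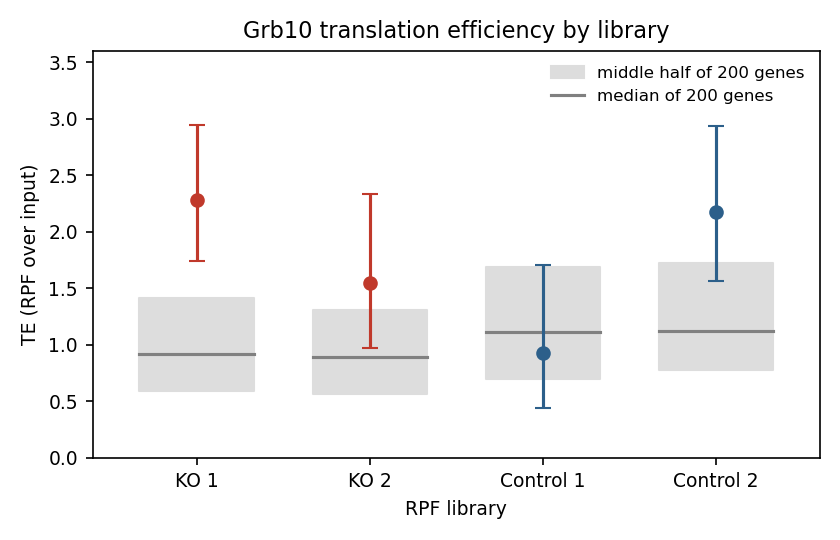
TE of Grb10 (RPF over input of the same replicate number) in each KO library (red) and Control library (blue), with 95% intervals from the RPF reads, over the median (grey line) and the range between quartiles (grey band) of TE in the 200 genes of like input. The KO points at 2.28 and 1.54 and the Control points at 0.928 and 2.17 overlap.

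Levels were compared between genes per kilobase of coding sequence. On that scale Grb10 input was 120.7 and 124.0 in KO, against 23.7 and 21.0 in Control, and its RPF was 276 and 191 in KO, against 22.0 and 45.6 in Control. The receptors that Grb10 binds were lower in input on that scale. Group means were 11.7 in KO and 12.1 in Control for Insr, the insulin receptor, and 12.7 in KO and 14.5 in Control for Igf1r, the IGF1 receptor. The order in Control rests on the length used: without it, Insr at 49.7 and Igf1r at 59.7 were above Grb10 at 39.98. In KO they were below it without length too, at 48.0 and 52.1 against 219. Grb7, the only other family member listed, had a mean input of 37.6 in KO and 40.9 in Control. The order of Grb10 and Grb7 was therefore different in the 2 genotypes. The same held for the adaptor Grb2, at 63.3 in KO and 63.1 in Control. Without length, Grb2 in Control input was close to Grb10, at a mean of 41.1 against 39.98. In Control input replicate 2 it was lower, at 35.5 against 37.5. Nedd4, the ubiquitin ligase that binds Grb10, was far above it in both genotypes, at 1189 in KO and 1216 in Control.

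The difference of Grb7 did not pass the threshold in input or RPF. Its normalised input was 57.9 and 62.7 in KO, against 63.7 and 67.8 in Control, a difference of -0.11 (limma, adjusted p = 0.627). Its RPF was 230 and 140 in KO, against 185 and 182 in Control, a difference of -0.03 (limma, adjusted p = 0.989).

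Of 91 genes of insulin, IGF and growth factor receptor signalling, 67 were listed, and none passed the threshold. Limma called 0 of 67 in input (8 at an unadjusted p under 0.05, beside 12.7% of all genes) and 0 of 59 in RPF (3, beside 10.8%), where edgeR and DESeq2 also called 0 with 3 and 2 at an unadjusted p under 0.05. The input differences of the list ran from -0.30 to 0.21 with a median of -0.01, and its RPF differences from -1.11 to 0.95 with a median of 0.02, close to the medians of all genes. In TE limma called 0 of 59 (5 at an unadjusted p under 0.05).

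By role, the 5 listed receptors and binding proteins had input differences of -0.16 to -0.04. Among them were Insr at -0.04, Igf1r at -0.16, the clearance receptor Igf2r at -0.06 and the binding protein Igfbp2 at -0.14. The ligands sought, Igf1, Igf2 and Ins2, were not listed. The docking proteins and adaptors included Irs2 at -0.12, Shc1 at 0.07, Grb2 at 0.00 and Gab1 at 0.03. Of PI3K and its kinase effectors, the catalytic subunits Pik3ca and Pik3cb had 0.09 and 0.16, the regulatory subunit Pik3r2 -0.07 and Pdpk1 -0.03. For mTOR, the kinase that phosphorylates Grb10, input differed by -0.01, with Rptor at -0.03 and Rictor at -0.05, the partners that define its 2 complexes, and their shared subunit Mlst8 at -0.30. All of these values lay below the 2.20 of Grb10, as did that of every other gene tested.

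The Ras branch had differences of the same size in input, with the exchange factors Sos1 at 0.03 and Sos2 at 0.09 and the GTPase Nras at 0.12. Among other partners of Grb10, Nedd4 differed by -0.03, the interacting proteins Gigyf1 and Gigyf2 by 0.00 and 0.06, and the insulin receptor phosphatase Ptpn1 by 0.16. RPF differences of the same genes were wider and in both directions, such as -0.70 for Insr, 0.70 for Igf1r, 0.64 for Grb2, 0.14 for Mtor, -0.12 for Nedd4 and -0.82 for Ptpn1, against 2.65 for Grb10.

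Along chromosome 11 no tested gene around Grb10 passed the threshold. Of the 10 nearest listed genes on each side, 32.4 to 8163 kb away, limma called 0 of 20 in input (4 at an unadjusted p under 0.05, beside 12.7% of all genes), 0 of 18 in RPF (4, beside 10.8%) and 0 of 18 in TE (5, beside 814 of 6240 genes), and edgeR and DESeq2 called 0 in RPF (3 and 1). Their differences ran from -0.16 to 0.23 in input and from -1.03 to 1.15 in RPF. The nearest, Ddc (chr11:11814101-11898144), encodes aromatic amino acid decarboxylase and shares the imprinted domain of Grb10. Its input was 89.0 and 84.5 in KO, against 90.3 and 90.8 in Control, a difference of -0.05 (limma, adjusted p = 0.812), and its RPF difference was 0.29 (adjusted p = 0.890).

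Only Fignl1 and Cobl of the other listed neighbours lay within 200 kb. On the side of Ddc, Fignl1, a DNA repair ATPase 122 kb from Grb10, had an input difference of 0.14. Farther out, the uridine phosphorylase Upp1 (2794 kb) had -0.09 and the checkpoint clamp subunit Hus1 (2919 kb) 0.09. On the other side Cobl, an actin nucleator 198 kb from Grb10, had 0.03. Beyond a long stretch with no listed gene, Sec61g (4462 kb), a subunit of the ER translocon, had -0.09, the calcineurin subunit Ppp3r1 (5121 kb) 0.07 and Wdr92 (5143 kb) 0.00. Hus1 had the highest RPF difference of the 18, 1.15 (limma, adjusted p = 0.402), less than the 2.65 of Grb10.

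**Figure D5:**
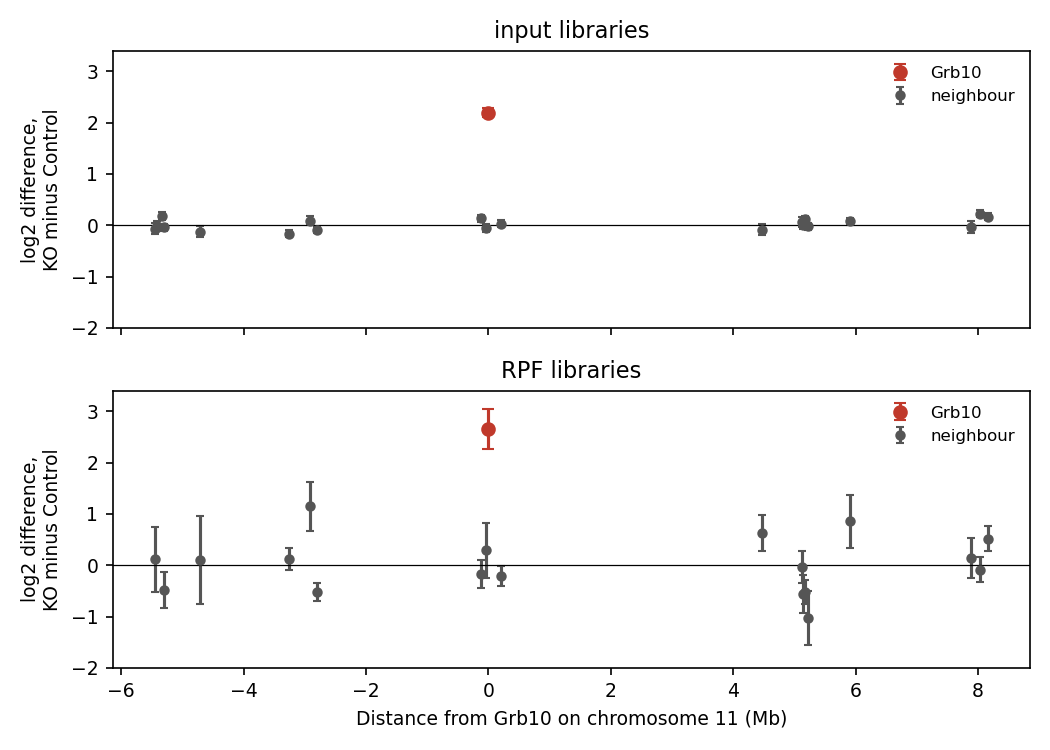
KO minus Control difference on the log2(value + 10) scale, with limma standard errors, of Grb10 (red) and of the tested genes among its 10 nearest listed neighbours on each side (grey), by distance on chromosome 11, in input (top) and RPF (bottom). The neighbours run from -0.16 to 0.23 in input and from -1.03 to 1.15 in RPF, with Grb10 at 2.20 and 2.65.

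Grb10 had the highest input and RPF differences of all genes tested, so every other imprinted gene tested lay below it. Of 60 imprinted genes 29 were listed and 28 were tested in input, where limma gave 6 an unadjusted p under 0.05, beside 12.7% of all genes. Limma called 2 of the 28 higher and 0 lower, beside 0.239% and 0.101% of all genes. These were Peg10, a retrotransposon-derived placental gene, with 290 and 355 in KO against 202 and 183 in Control, a difference of 0.71 (limma, adjusted p = 0.00864), and Impact, a regulator of the Gcn2 kinase, with 261 and 245 in KO against 171 and 196 in Control, a difference of 0.44 (adjusted p = 0.0487). The call of Impact was lost with equalised library medians (adjusted p = 0.0538) and with a stricter filter (0.0854). The median input difference of the 28 was -0.00, and in RPF limma, edgeR and DESeq2 called 0 of 23 (8, 8 and 3 at an unadjusted p under 0.05, where limma had 10.8% of all genes).

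Some markers of cell types also passed the threshold in input, with differences smaller than that of Grb10, the highest of all genes tested. All 10 pluripotency markers were listed, with summed input of 14086 and 13723 in KO and 14163 and 14035 in Control. Limma called 0 of them higher and 1 lower, beside 0.239% and 0.101% of all genes. The 1 called, Fbxo15, fell by 0.34 on the log2 scale (limma, adjusted p = 0.0477). That call was lost with a stricter filter (adjusted p = 0.0687) and without KO input replicate 1 (0.120) or 2 (0.129). Of 12 primitive endoderm markers 6 were listed, and the defining factors Gata4, Gata6, Sox17, Sox7, Foxa2 and Pdgfra were not among them. Limma called 3 of 5 higher in input, beside 0.239% of all genes: Col4a1 at 0.67, Col4a2 at 0.70 and Cubn at 0.74. The summed input of the markers in the list was 1486 and 1567 in KO, against 1148 and 1134 in Control. Their part in the difference of Grb10 was not tested, and in bulk libraries more cells of a type and more RNA per cell cannot be told apart.

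The remaining marker lists were smaller. Of 11 trophoblast markers 5 were listed, with summed input of 558 and 630 in KO and 517 and 530 in Control. Peg10 was the 1 called of 4 tested, beside 0.239% of all genes called higher. The higher KO sum rests on Peg10, with 290 and 355 in KO and 202 and 183 in Control. Krt8 differed by 0.52 on the log2 scale, while Phlda2 and Tfap2c differed by -0.41 and -0.26, and limma called none of these. The 2 listed fibroblast markers, of 9, summed to 463 and 440.04 in KO and 471 and 477 in Control, with 0 called by limma (1 at an unadjusted p under 0.05). Of 5 neural markers 4 were listed, and limma called 1 lower, Sox11 by 0.59 on the log2 scale, beside 0.101% of all genes. Of 5 mesoderm markers 0 were listed. Zscan4d, the only listed marker of cells that resemble the early cleavage stage, fell by 0.63. Their part in the difference of Grb10 was not tested either.

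The genes whose pattern was most like that of Grb10 were found by Pearson's r over the 8 libraries, after the mean of each library kind was taken away, among 6239 genes. Among the nearest were Eif2b3 at r = 0.968, with input of 491 and 478 in KO against 277 and 305 in Control, Rhpn2 at 0.958, Coa7 at 0.951, Mmrn2 at 0.942, Lrpap1 and Morf4l2 at 0.940, Snrpa1 and Col4a1 at 0.933 and Sept11 at 0.932. These genes had higher means in KO, by less than Grb10, with input differences of 0.14 to 0.72 and RPF differences of 0.24 to 1.05, and 29 of the 6239 had an r over 0.9. The 8 points share only 4 input and 4 RPF libraries of 2 genotypes, so these r values describe the shape of the pattern and are given with no test.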

How the data were processed

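The authors trimmed and quality-filtered the reads, removed rRNA and tRNA, and aligned RPFs to canonical mm10 gene models with Bowtie at a maximum of 1 mismatch. Neither the Bowtie version nor the counting of input is given in the sources used here. In the deposited signal values, which are named RPKM, the reads had been scaled by a single factor for each library with no correction for length, since every value was a whole multiple, within 0.02 read, of a step shared by its library. The log2 change of TE that the authors deposited entered no test. It correlated at r = -0.975 over 8125 genes with log2 KO over Control TE from the columns, so the direction rests on the column names.

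Input and RPF values plus a pseudocount of 10 were taken to log2 and tested, two-sided, with limma 3.58.1 in R 4.3.3 (eBayes with trend) over genes whose mean value reached 10 (input) or 50 (RPF). TE was the interaction over the 8 libraries. P-values were adjusted by Benjamini-Hochberg over all genes tested, with a threshold of 0.05. With 2 against 2 libraries an exact test could not go below 0.333. Fold changes on this scale understate those of low genes. edgeR 4.0.16 and DESeq2 1.42.0 were run on RPF reads. Each tool was also run on simulated data, the outcome of which is not reported here. GENCODE M21 matched 8125 of 8125 genes. Per-kilobase values used the longest coding sequence.

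The gene, lists, tests and alternatives were chosen with earlier results of these data known. Named were Grb10, Grb7, up to 4 listed genes per signalling role in a set order, the 4 nearest neighbours on each side, the 10 genes of most like pattern, and the genes next to Grb10 in the order of differences. Peg10, Impact, the called markers, the other tested trophoblast markers and the highest genes of like abundance were named after their values were seen. Not every gene named by the rule is reported here.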

Additional observations from a re-analysis of the deposited data

How the results depend on the processing

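The Grb10 differences were positive in every setting tried: 9 for input, 11 for RPF and 13 for TE. The gene was chosen for its rise in input and RPF, so these signs are no test, and the sizes below only describe. For input the difference was 2.43 with a pseudocount of 1 and 1.83 with a pseudocount of 30, and 2.12 to 2.27 with a library left out. For RPF it ran from 2.33 to 2.83 (edgeR 2.70, DESeq2 2.75), or 2.20 to 3.09 with a library left out, and for TE from 0.30 to 0.50, or 0.01 to 0.90 with a library left out. The counts of called genes changed more. In input 27 became 42 with thinned reads and 14 with a stricter filter (a mean value of 100, or 200 for RPF), and in RPF 39 became 21 with equalised medians, 1 with thinned reads, 84 with the stricter filter and 90 with edgeR, against 56 with DESeq2. In TE the stricter filter gave 40 in place of 0. With a library left out the counts ran from 43 to 599 in input, 34 to 873 in RPF and 0 to 1345 in TE, where a lone library is assumed to vary like the others. The highest counts came without Control input replicate 2 (599), KO RPF replicate 1 (873 in RPF, 1345 in TE) and KO RPF replicate 2 (759 and 1113). The causes were not tested. Deviations of libraries with the same replicate number were little correlated (r 0.0051 to 0.0905). Pairing is not excluded by this, since few RPF reads could hide it. A replicate block gave 69 calls in input and 126 in RPF. It could not move the Grb10 differences of 2.20, 2.65 and 0.45, as every group held both replicate numbers. edgeR and DESeq2 were not run on input or TE. Depth limits RPF and TE, with 10 to 60 Grb10 reads per RPF library.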
